A study of Mus musculus with 30 samples.

Results

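The genes described here are 10 of the 30284 mouse genes to which the quantified transcripts could be assigned. They were chosen by name as matrix proteoglycans, matrix Gla protein and matricellular proteins, and the estimated counts and TPM (the length-corrected share of all transcripts) of each gene's transcripts were added up in all 30 libraries. Decorin (Dcn), biglycan (Bgn), lumican (Lum) and fibromodulin (Fmod) are small leucine-rich proteoglycans, Mgp is matrix Gla protein, Fn1 is fibronectin, tenascin-C (Tnc), periostin (Postn) and Sparc are matricellular proteins, and Fbn1 is fibrillin-1.

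Muscle cells sit in a collagen matrix whose fibrils are spaced by small leucine-rich proteoglycans, and whose fibronectin and fibrillin networks hold growth factors and offer binding sites to integrins. Matricellular proteins are secreted into this matrix and change how cells adhere to it, and several of them appear in muscle during development and after injury. In intact muscle much of this matrix is made by the fibroblasts between the fibres, while myoblasts and myotubes in culture also make part of it themselves.

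RNA was sequenced from 2 kinds of mouse muscle cell, with 3 libraries in each of 10 groups. Primary myoblasts, taken by the study's methods from hindlimb muscles of 3 C57/Bl6J mice aged 8 weeks and enriched by pre-plating, gave libraries at day 0 on plastic and at days 4 and 7 of differentiation on patterned gelatin. C2C12, a myoblast line used up to passage 8, gave libraries at day 0 on plastic and at days 4 and 7 on patterned gelatin, unpatterned gelatin and plastic. Patterned gelatin is a crosslinked hydrogel molded with grooves 10 µm wide, unpatterned gelatin is the same gel without grooves, and day 0 cells were confluent myoblasts before serum was withdrawn. The labels give plastic as the substrate of both day 0 groups, but by the methods primary cells were expanded in Ham's F-10 with more serum and basic FGF on dishes coated with a tumour-derived ECM gel, while C2C12 grew in DMEM on uncoated plastic. Whether the day 0 primary libraries came from coated dishes is not said, so at day 0 cell type, medium and a possible matrix coating cannot be told apart. No cell carried a mutation or was given an agent by the labels. Myotubes of days 4 and 7 were lifted with a brief trypsin step meant to enrich for myotubes, which the methods describe for those days alone. By the methods primary cells were treated as C2C12 were once plated on gelatin, so their medium changed too. Day 4 and day 0 of the primary cells therefore differ in day, medium, substrate and possibly coating and harvest, and these cannot be told apart. Day 4 and day 0 of C2C12 on plastic differ in day, serum and possibly harvest, which cannot be told apart either. In such bulk samples fewer cells of a type and less RNA per cell cannot be told apart either.

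The libraries held 13.1 to 59.4 M estimated counts. By the paper 3 separate cultures were made per condition, so p-values measure the spread between cultures of a group, shared over the groups of a fit. The paper also describes 2 batches of C2C12 and reports that the single genes regulated often differed between them. The labels used here name no batch, so how far C2C12 values of single genes hold in another batch was not measured. Levels are given in TPM, which can be compared between genes, and comparisons of a single gene between groups are given in CPM (counts scaled to library size by TMM factors), the scale on which the tests were made. Myotube markers rose in both cell types (10 of 10 in C2C12 on plastic and 9 of 10 in primary cells between day 0 and day 4), and leukocyte markers summed to no more than 11.4 TPM in any library. Primary replicate 3 stood apart from replicates 1 and 2 on all 3 days. In its libraries Bgn, Fn1, Postn, Tnc and Fbn1 lay below both other primary libraries of the same day on every day, and Mgp lay above both. At day 7 it also had less of the muscle creatine kinase Ckm, at 14.1 TPM beside 777 and 574 TPM. Calls that rest on primary cells are therefore also given from replicates 1 and 2 alone, an alternative chosen after the data were seen. Replicate 3 was set aside for the values of these same genes. Values and adjusted p from replicates 1 and 2 alone therefore describe those 2 cultures and give no independent support to a call.

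**Figure D1:**
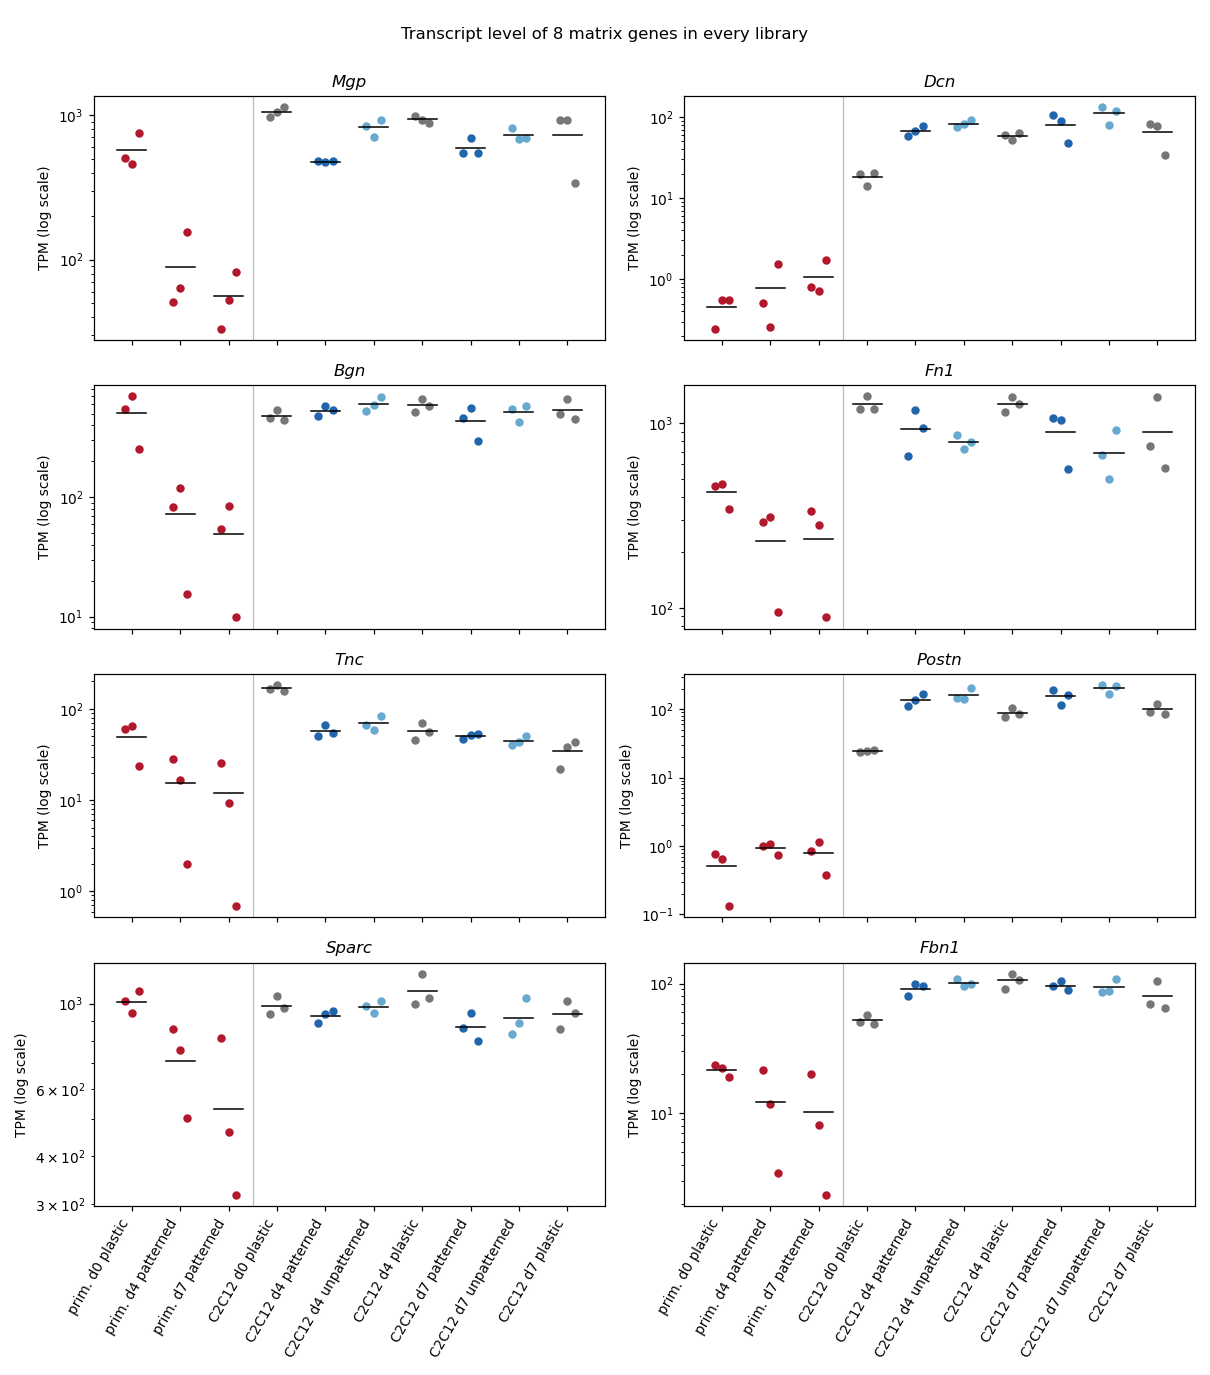
Transcript level in TPM on a log scale of 8 of the genes in every library, with a point per library, a line at the mean of 3, primary groups left of the grey line and C2C12 groups right of it. Dcn and Postn did not exceed 1.71 TPM in any primary library and were 14.2 TPM or higher in every C2C12 library, while Sparc lay between 317 and 1198 TPM in all 30.

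Together the 10 genes took 0.0502% to 0.266% of all transcripts in primary libraries and 0.253% to 0.453% in C2C12 libraries. Sparc, Fn1, Mgp and Bgn made up 86.4% to 97.4% of that sum in each group mean. Lumican, which regulates collagen fibril assembly, was barely detected, with 17 estimated counts over all libraries, 20 of 30 libraries at 0 and never more than 3 counts in a library. It passed the filter on low counts in no comparison and is not described further. Fibromodulin, a keratan sulfate proteoglycan that binds collagen, was low as well, at no more than 1.23 TPM in C2C12 and at 0 counts in all 9 primary libraries. The other 8 genes were tested in every comparison.

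Sparc, a collagen-binding glycoprotein also called osteonectin, lies on chromosome 11 (chr11:55394500-55423183, minus strand, GRCm38) and had the most even level. Its group means ran from 530 ± 254 TPM in primary cells at day 7 to 1078 ± 105 TPM in C2C12 on plastic at day 4 (SD, n = 3), and all 9 pairs of neighbours in the order of group means overlapped. Fibronectin, the main ligand of the integrin α5β1 (chr1:71585520-71653200, minus strand), had group means of 231 to 423 TPM in primary cells and 692 to 1266 TPM in C2C12. Mgp, a vitamin K-dependent inhibitor of soft tissue calcification (chr6:136872435-136875823, minus strand), ran from 55.9 ± 24.5 TPM in primary cells at day 7 to 1052 ± 83.7 TPM in C2C12 at day 0. In its order of group means the step from C2C12 at day 4 on patterned gelatin to primary cells at day 4 was the single one of 9 at which the libraries did not overlap.

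Biglycan, a proteoglycan that binds the sarcoglycans of the muscle membrane (chrX:73483602-73495933, plus strand), was at 503 ± 229 TPM in primary cells at day 0 and at 438 to 601 TPM in all 7 C2C12 group means, but at 72.8 ± 53.0 and 49.6 ± 37.8 TPM in primary cells at days 4 and 7. Decorin, which coats collagen fibrils and binds TGF-β (chr10:97479609-97518143, plus strand), and periostin, an adhesive protein of injured and growing tissue (chr3:54361109-54391037, plus strand), had the widest ranges. Decorin group means ran from 0.450 ± 0.178 TPM in primary cells at day 0 to 111 ± 27.1 TPM in C2C12 on unpatterned gelatin at day 7. Periostin group means ran from 0.514 ± 0.338 TPM in primary cells at day 0 to 202 ± 33.3 TPM in C2C12 on unpatterned gelatin at day 7. Both genes had their gaps at the same places, between the primary groups and C2C12 at day 0 and again between C2C12 at day 0 and every later C2C12 group.

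Tenascin-C, which loosens the adhesion of cells to fibronectin (chr4:63959785-64047015, minus strand), was highest in C2C12 at day 0 with 168 ± 14.5 TPM and lowest in primary cells at day 7 with 11.9 ± 12.8 TPM. Fibrillin-1, the backbone of the microfibrils that store latent TGF-β (chr2:125300594-125507993, minus strand), ran from 10.2 ± 9.04 TPM in primary cells at day 7 to 106 ± 14.04 TPM in C2C12 on plastic at day 4. The order of the C2C12 groups from day 4 on was within the spread of neighbours for Fbn1 and for Tnc. Ordering the groups by CPM in place of TPM kept the lowest group of Mgp, Bgn, Tnc and Fbn1 at primary day 7 and of Dcn and Postn at primary day 0. By CPM the highest group of Mgp, Bgn and Fn1 was C2C12 on plastic at day 4, where by TPM it was C2C12 at day 0 for Mgp and Fn1 and unpatterned gelatin at day 4 for Bgn, and the groups exchanged overlapped in TPM for all 3 genes. The lowest group of Fn1 was primary day 4 by TPM and primary day 7 by CPM.

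Over the 10 group means of log2(CPM + 1), Dcn and Postn had a Pearson r of 0.9975, the highest of the 28 pairs among the 8 genes tested everywhere. Over the 7 C2C12 groups alone their r was 0.9867, so the likeness did not rest on the step between the cell types. Mgp and Bgn had an r of 0.9745 over 10 groups but 0.4155 over the 7 C2C12 groups. These values describe 10 points that share cell type, depth and scaling, and no p is given. Among 12011 other genes averaging 1 or more in log2 CPM, the 3 most like Mgp were Islr (r = 0.9905), Lrig3 (0.9892) and Ephb6 (0.983), and those most like Dcn were Eapp (0.9973), Tmem45a (0.9916) and Slc25a29 (0.9903). The 3 most like Fn1 were Tcirg1 (0.9845), Nav1 (0.982) and Ccdc102a (0.9793), and those most like Tnc were Ralb (0.9922), Plekhg3 (0.9909) and Zbtb8a (0.9903).

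Which of these genes differ between primary cells and the line was asked at each day in a fit of all 30 libraries with the quasi-likelihood test of edgeR. At day 0, 6 of the 9 genes tested were lower in primary cells and none was higher, where 27.9% of 15455 genes were lower and 29.6% were higher. On patterned gelatin at day 4, 8 were lower and none higher (24.9% of genes lower, 25.7% higher), and at day 7 all 9 were lower (26.4% lower, 25.1% higher). On log2(TPM + 1) the balance of calls over all genes was 2479 higher and 4870 lower at day 4 against 3969 and 3855 in edgeR, and 2809 and 4824 at day 7 against 3873 and 4078. The median of all genes moved by -0.10 at day 0 and -0.15 at day 4 on that scale. The day 4 and day 7 comparisons each set primary cells against C2C12 on the same substrate.

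Decorin had 0.238, 0.583 and 0.603 CPM in primary cells at day 0 and 18.7, 12.8 and 20.8 CPM in C2C12, a log2 fold change of -5.19 ± 0.48 (standard error; edgeR adjusted p = 2.2e-09). At day 7 on patterned gelatin it had 0.851, 0.789 and 1.96 CPM in primary cells and 98.7, 84.5 and 51.0 CPM in C2C12 (log2 fold change -6.08 ± 0.45, adjusted p = 7.2e-11). The groups were far apart on each day, and the primary values rest on 7 to 47 estimated counts a library.

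Periostin had 1.12, 1.20 and 0.248 CPM in primary cells at day 0 and 36.6, 34.3 and 42.1 CPM in C2C12 (log2 fold change -5.45 ± 0.35, adjusted p = 3.4e-12). At day 4 the values were 1.93, 2.04 and 1.10 CPM in primary cells and 177, 208 and 245 CPM in C2C12 (-6.97 ± 0.35, adjusted p = 6.2e-14), and at day 7 the log2 fold change was -7.97 ± 0.38 (adjusted p = 1.7e-14). No primary library came near a C2C12 library. The primary values rest on 7 to 51 estimated counts.

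Fibromodulin, at 0 in primary libraries, had 16, 51 and 21 estimated counts summed over the 3 C2C12 libraries of day 0, day 4 and day 7 on patterned gelatin. Set against 3 counts per library, the limit that a count of 0 allows, it was at least 2.08-fold lower in primary cells at day 0, at least 5.50-fold lower at day 4 and at least 3.03-fold lower at day 7. These limits cover counting error alone.

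Biglycan did not follow the same course. At day 0 it had 638, 731 and 344 CPM in primary cells and 513, 506 and 540 CPM in C2C12, with overlapping libraries and a log2 fold change of 0.13 ± 0.48 (adjusted p = 0.84). At day 4 it had 91.9, 126 and 22.7 CPM in primary cells and 555, 563 and 636 CPM in C2C12 (-2.88 ± 0.52, adjusted p = 6.5e-05), and at day 7 65.8, 95.7 and 9.67 CPM against 553, 638 and 375 CPM (-3.28 ± 0.53, adjusted p = 1.6e-05). The separation was thus present on both later days and not at day 0. Tested as an interaction, the difference between primary cells and C2C12 at day 4 less that at day 0 was -3.01 ± 0.70 for Bgn (adjusted p = 0.0031) and -1.52 ± 0.48 for Postn (adjusted p = 0.027), in a comparison chosen after the data were seen that called 20.5% of genes in either direction. The term for Bgn was called in every fit that left out a library, while that for Postn was lost in 6 of 12, those without C2C12 day 4 replicate 3, C2C12 day 0 replicate 1 or 2, primary day 4 replicate 3 or primary day 0 replicate 1 or 2 (adjusted p = 0.055 to 0.15). The same term was -1.42 ± 0.52 for Mgp (adjusted p = 0.053), and it was -1.47 and called with the replicate number as a block (adjusted p = 0.041). That block gives primary and C2C12 libraries of the same number a shared effect, although C2C12 libraries did not deviate together by number. From primary replicates 1 and 2 alone the interaction called 4 genes, Mgp (-1.84, adjusted p = 0.00069), Bgn, Postn and Fbn1 (-1.23, adjusted p = 0.012). The 20.5% of genes belongs to the fit of all libraries without the block. The calls under the block and from replicates 1 and 2 have no such share beside them.

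Mgp had 119, 110 and 199 CPM in primary cells and 209, 209 and 272 CPM in C2C12 at day 0, a difference of -0.68 ± 0.36 that missed the threshold (adjusted p = 0.11) although the libraries did not overlap. From primary replicates 1 and 2 alone the same difference was -0.999 (adjusted p = 0.0023). Replicate 3, set aside there, was the primary library nearest to C2C12, so a larger difference followed from that choice. At day 4 it had 12.9, 15.9 and 44.9 CPM in primary cells and 111, 95.2 and 104 CPM in C2C12 (-2.10 ± 0.38, adjusted p = 6.3e-05), and at day 7 8.82, 13.4 and 22.3 CPM against 127, 160 and 143 CPM (-3.35 ± 0.40, adjusted p = 2.1e-07). The primary library nearest to C2C12 was replicate 3 on each of these days.

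Fibronectin was lower in primary cells on all 3 days, by log2 values of -1.41 ± 0.42 at day 0 (adjusted p = 0.0067), -1.80 ± 0.43 at day 4 (0.0012) and -1.66 ± 0.43 at day 7 (0.0022). At day 4 it had 1338, 1484 and 460 CPM in primary cells and 2721, 4687 and 3936 CPM in C2C12, so the groups were separate but wide. Fibrillin-1 had 128, 130 and 111 CPM in primary cells and 267, 288 and 269 CPM in C2C12 at day 0 (-1.16 ± 0.46, adjusted p = 0.035). That call was lost whichever of the 6 libraries was left out (adjusted p = 0.058 to 0.099), with log2 values of -1.20 to -1.06. The fit shares its estimate of a gene's spread over all 30 libraries. Fbn1 spread widely in primary cells at days 4 and 7 (SD 55.0 and 54.6 CPM), beside an SD of 10.4 CPM at day 0. Fibrillin-1 differed by -2.76 ± 0.48 at day 4 (adjusted p = 4.5e-05) and by -3.11 ± 0.49 at day 7 (1.2e-05).

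Tenascin-C had 236, 282 and 103 CPM in primary cells and 637, 688 and 662 CPM in C2C12 at day 0 (-1.69 ± 0.69, adjusted p = 0.039). At day 7 it had 119, 41.4 and 3.29 CPM in primary cells and 178, 199 and 172 CPM in C2C12 (-1.82 ± 0.69, adjusted p = 0.031). The primary values spread over a range far wider than the gap to C2C12, and the call was lost at days 4 and 7 when only the groups compared were fitted (adjusted p = 0.096 and 0.17). It was also lost in 5 of the 6 fits that left out a library on each day, all but those without primary replicate 2 at day 0 and primary replicate 1 at days 4 and 7, and was -1.21 at day 7 without primary replicate 3 (adjusted p = 0.083). From primary replicates 1 and 2 alone it was -1.23 at both day 4 and day 7 (adjusted p = 0.0017 for each), with the lowest primary library set aside. Sparc had 1078, 599 and 438 CPM in primary cells and 964, 1068 and 1023 CPM in C2C12 at day 7 (-0.60 ± 0.20, adjusted p = 0.016), with overlapping libraries, and was not called from replicates 1 and 2 alone (-0.32, adjusted p = 0.075) nor without day 7 primary replicate 2 (-0.44, 0.10) or 3 (-0.30, 0.16).

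The other calls held in primary replicates 1 and 2 alone, with adjusted p of 0.0028 or less, which is no independent support for them. At days 0, 4 and 7 these gave -5.40, -7.36 and -6.60 for Dcn, where all 3 gave -6.24 ± 0.46 at day 4, and -5.01, -6.72 and -7.52 for Postn. For Fn1 they gave -1.29, -1.42 and -1.22 and for Fbn1 -1.08, -2.31 and -2.61. For days 4 and 7 they gave -2.43 and -2.74 for Bgn and -2.84 and -3.74 for Mgp. Single libraries moved some of these values by over 1.5 times without ending the call. Without primary replicate 1 Fbn1 was -3.43 at day 4 and -4.04 at day 7 and Tnc was -2.45 and -3.08, and without primary replicate 3 Dcn was -7.36 and Mgp -2.84 at day 4.

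**Figure D2:**
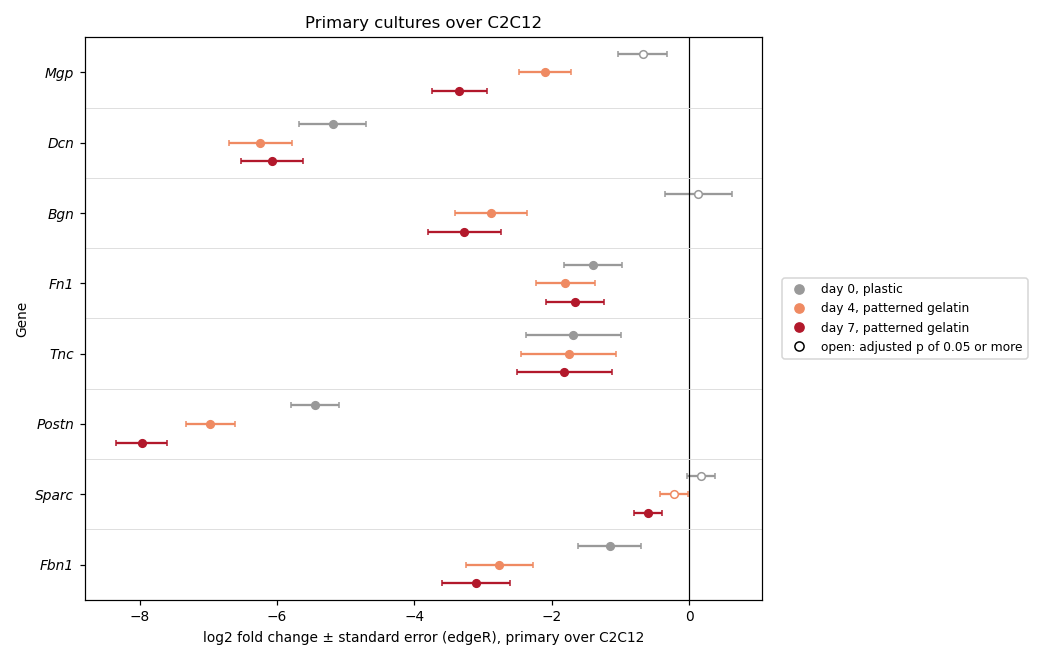
Log2 fold change of primary cells over C2C12 with its standard error (edgeR) for 8 genes, at day 0 on plastic and at days 4 and 7 on patterned gelatin, filled where the adjusted p was under 0.05. Dcn and Postn lay below -5 on each day, Bgn moved from 0.13 at day 0 to -3.28 at day 7, and Sparc stayed between 0.17 and -0.60.

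Markers of other cell types moved with these differences. Over all genes 27.9%, 24.9% and 26.4% were lower in primary cells at days 0, 4 and 7, and 29.6%, 25.7% and 25.1% were higher. Of 12 fibroblast or fibro-adipogenic progenitor markers, 9 were tested and 5, 7 and 6 were lower in primary cells at days 0, 4 and 7, with 1, 1 and 0 higher, and the 12 genes summed to 180 to 339 TPM in primary libraries and 560 to 892 TPM in C2C12 at day 0 and on patterned gelatin. Its most abundant genes included Gsn and Tcf4 in both cell types and Ly6a in C2C12. Thy1 was at 0 in all C2C12 libraries of day 0 and of day 4 on patterned gelatin, and the defining marker Pdgfra had 0.251 to 0.593 TPM in primary libraries against 2.73 to 3.93 TPM in C2C12 at day 0 and on patterned gelatin. Of 8 smooth muscle or pericyte markers, 6 were tested, with 3 higher and 2 lower in primary cells at day 0 and 2 higher and 4 lower at days 4 and 7. At day 0 these 8 genes summed to 1271 to 1645 TPM in primary libraries and 1084 to 1204 TPM in C2C12, so the primary sums were higher. On patterned gelatin they summed to 564 to 1215 TPM and 2105 to 2242 TPM at day 4, and to 575 to 1268 TPM and 1999 to 2359 TPM at day 7. Unlike the 3 markers higher in primary cells at day 0, Pdgfrb had 0.0345 to 1.80 TPM in primary libraries against 33.1 to 55.3 TPM in C2C12 at day 0 and on patterned gelatin. Of 8 markers of proliferating cells 6, 6 and 5 were lower in primary cells at days 0, 4 and 7 and 1 was higher on each day, with sums of 569 to 709 TPM in primary libraries and 1336 to 1587 TPM in C2C12 at day 0, and of 112 to 136 TPM and 158 to 196 TPM at day 7. Of 7 myoblast markers tested 3, 5 and 6 were lower and 2, 1 and 0 higher, and the list of 8 summed to 1277 to 1465 TPM in primary libraries and 751 to 917 TPM in C2C12 at day 0 and to 622 to 664 TPM and 1076 to 1125 TPM at day 7, with Chrdl2 at 0 in those C2C12 libraries. Mitochondrial transcripts took 3.31% to 3.72% of counts in primary libraries and 2.03% to 2.80% in C2C12 at day 0, and 4.66% to 6.95% and 0.894% to 1.91% at day 7. The part of these values in the matrix gene differences was not tested.

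Related genes from lists chosen with earlier results of these data known were counted in the same fits. Over all genes 29.6% were higher and 27.9% lower in primary cells at day 0, and 25.1% and 26.4% at day 7. Counts near these shares are not particular to a list. Of 25 other proteoglycans tested, 7 were higher and 13 lower in primary cells at day 0, and 4 were higher and 12 lower at day 7 (median log2 fold change -0.80 and -1.04, where that of all genes was -0.01 and 0.00). The glypican Gpc4, a heparan sulfate proteoglycan of the cell surface, had 50.9 to 262 TPM in primary libraries and no more than 0.205 TPM in C2C12. Of 22 elastic fibre and microfibril genes, 2 were higher and 11 lower at day 0. The latent TGF-β binding protein Ltbp2 had a median of 1.01 TPM in primary cells and 64.1 TPM in C2C12 at day 0 (log2 fold change -6.05 ± 0.41, adjusted p = 9.1e-12), and the lysyl oxidase Lox fell by 6.19 relative to C2C12 (± 0.38, adjusted p = 1.4e-12).

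Of 22 other matricellular and adhesive glycoproteins, 4 were higher and 13 lower in primary cells at day 0 (29.6% of all genes higher, 27.9% lower). Of 21 receptors of the 10 proteins or of TGF-β and related ligands, 3 were higher and 9 lower at day 0. Those with the smallest adjusted p were the integrin chain Itgb3, which pairs with αv to bind fibronectin and periostin (-5.21 ± 0.24, adjusted p = 5.2e-15), and Tlr2, a receptor of biglycan and decorin (-3.44 ± 0.24, adjusted p = 1.1e-11). Of 15 vitamin K and mineralisation genes, 5 were higher and 4 lower at day 0, near the shares of all genes. Among them Enpp1, which makes the mineralisation inhibitor pyrophosphate, had medians of 0.963 TPM in primary cells and 21.7 TPM in C2C12 (-4.58 ± 0.17, adjusted p = 7.6e-17). Of 24 enzymes of glycosaminoglycan synthesis, which build the side chains of proteoglycans, 7 were higher and 11 lower, with the chondroitin sulfotransferase Chst3 at -3.04 ± 0.23 (adjusted p = 7.5e-11).

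How the genes differ between days was asked separately in each cell type. In C2C12 on plastic, 6 of 9 genes rose and 1 fell between day 0 and day 4 (30.2% of 14852 genes rose, 27.7% fell). Between day 4 and day 7 on plastic none rose and 5 fell (6.47% rose, 8.38% fell). On unpatterned gelatin 1 of 9 fell and none rose between day 4 and day 7 (1.31% of genes fell, 1.62% rose). On patterned gelatin none was called by edgeR or DESeq2 in that interval, with 1 at an unadjusted p under 0.05 (11.2% of genes rose, 9.01% fell). That gene was Mgp, with 127, 160 and 143 CPM at day 7 and 111, 95.2 and 104 CPM at day 4 (0.51 ± 0.24, adjusted p = 0.13), and the others ran from -0.74 ± 0.44 for Fmod to 0.31 ± 0.18 for Postn, which was called without day 7 replicate 2 (0.51, adjusted p = 0.036).

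Decorin had 67.6, 54.5 and 72.1 CPM at day 4 on plastic and 18.7, 12.8 and 20.8 CPM at day 0 (1.92 ± 0.28, adjusted p = 9.5e-06). Periostin had 125, 168 and 150 CPM at day 4 on plastic and 36.6, 34.3 and 42.1 CPM at day 0 (1.99 ± 0.19, adjusted p = 2.1e-08). Fibrillin-1 had 571, 695 and 659 CPM at day 4 and 267, 288 and 269 CPM at day 0 (1.24 ± 0.12, adjusted p = 4.5e-08). In each of the 3 genes every library of day 4 exceeded every library of day 0.

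Fibromodulin rose as well, to 1.39, 2.27 and 1.51 CPM at day 4 on plastic, against 0.306, 0.159 and 0.138 CPM at day 0 (3.07 ± 0.41, adjusted p = 2.5e-06). Tenascin-C fell to 210, 303 and 255 CPM at day 4 on plastic, against 637, 688 and 662 CPM at day 0 (-1.35 ± 0.18, adjusted p = 2.3e-06). Biglycan and Sparc rose by less, with 722, 879 and 807 CPM at day 4 and 513, 506 and 540 CPM at day 0 for Bgn (0.65 ± 0.15, adjusted p = 0.00084) and 1328, 1483 and 1364 CPM against 1032, 1097 and 1180 CPM for Sparc (0.35 ± 0.08, adjusted p = 0.0010). These last 2 rises depended on the scale. With limma on log2(TPM + 1), where the median of all genes moved by -0.15 in this comparison, they were 0.29 and 0.12 and were not called (adjusted p = 0.23 and 0.30). Mgp at 0.07 ± 0.23 (adjusted p = 0.83) and Fn1 at 0.26 ± 0.30 (adjusted p = 0.48) missed the threshold.

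Between day 4 and day 7 on plastic Tnc fell to 87.5, 138 and 168 CPM at day 7, against 210, 303 and 255 CPM at day 4 (-0.95 ± 0.18, adjusted p = 0.0018), and Fmod fell to 0.260, 0.707 and 0.424 CPM, against 1.39, 2.27 and 1.51 CPM (-1.85 ± 0.36, adjusted p = 0.0023). Fbn1 fell by 0.63 (± 0.12, adjusted p = 0.0022), Bgn by 0.53 (± 0.15, 0.021) and Sparc by 0.41 (± 0.08, 0.0027). On log2(TPM + 1), where the median of all genes moved by 0.16, only Tnc and Fmod kept an adjusted p under 0.05, and Bgn, Sparc and Fbn1 had 0.64, 0.15 and 0.051. The call of Bgn was also lost without day 4 replicate 2 or 3 or day 7 replicate 1 or 3 (adjusted p = 0.11, 0.055, 0.063 and 0.11). Fn1, at -0.85 ± 0.30 (adjusted p = 0.061), was called without day 7 replicate 2 (-1.27, adjusted p = 0.0070). The Mgp value of day 7 on plastic was 225 and 197 CPM in 2 libraries and 78.1 CPM in replicate 3, which was also the lowest of its group for Dcn, at 32.9 CPM beside 80.96 and 69.6 CPM. On unpatterned gelatin Tnc had 163, 176 and 194 CPM at day 7 and 277, 245 and 349 CPM at day 4 (-0.69 ± 0.18, adjusted p = 0.039), a call that did not hold in 5 of the 6 fits that left out a library (adjusted p = 0.080 to 0.20), all but that without replicate 2 of day 4. The other genes on unpatterned gelatin ran from -1.42 ± 0.40 for Fmod (adjusted p = 0.063) to 0.38 ± 0.27 for Dcn (adjusted p = 0.56).

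In primary cells 2 of the 8 genes tested fell between day 0 on plastic and day 4 on patterned gelatin, and none rose (22.4% of 14360 genes fell, 20.2% rose). Mgp had 12.9, 15.9 and 44.9 CPM at day 4 and 119, 110 and 199 CPM at day 0 (-2.59 ± 0.54, adjusted p = 0.0048), and Bgn had 91.9, 126 and 22.7 CPM at day 4 and 638, 731 and 344 CPM at day 0 (-2.89 ± 0.84, adjusted p = 0.023). All 3 replicates had less of both genes at day 4. The call of Bgn was lost without day 4 replicate 1, day 0 replicate 1 or day 0 replicate 2 (adjusted p = 0.060, 0.054 and 0.061). With the replicate number as a block, which the check of pairing allowed for primary cells, 4 genes fell and 1 rose. Mgp was then at -2.75, Bgn at -3.21, Fn1 at -1.04 (adjusted p = 0.024), Tnc at -2.29 (0.013) and Postn at 1.09 (0.030), the last from values of 1.93, 2.04 and 1.10 CPM at day 4 and 1.12, 1.20 and 0.248 CPM at day 0. From replicates 1 and 2 alone 4 genes fell, Mgp by 3.01, Bgn by 2.67, Fn1 by 0.52 (adjusted p = 0.012) and Tnc by 1.40 (0.021). The shares of all genes given above belong to the fit of all primary libraries without the block. The counts under the block and from replicates 1 and 2 therefore have no such share beside them.

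Between day 4 and day 7 no gene of the 8 was called in primary cells by edgeR with or without the block, by DESeq2 or from replicates 1 and 2 alone, with 0 at an unadjusted p under 0.05, and 0% of genes rose and 0% fell in the whole table. For Mgp the values were 8.82, 13.4 and 22.3 CPM at day 7 and 12.9, 15.9 and 44.9 CPM at day 4, lower at day 7 in each replicate (-0.71 ± 0.52, adjusted p = 1.0). The difference between the cell types in the step from day 4 to day 7 on patterned gelatin called none of the 9 genes, with 2 at an unadjusted p under 0.05 and 0.77% of all genes called in either direction.

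Among the related genes, 8 of 20 receptors rose and 8 fell in C2C12 on plastic between day 0 and day 4. Over all genes 30.2% rose and 27.7% fell, and counts near these shares are not particular to a list. Tlr2 rose by 2.14 ± 0.10 (adjusted p = 1.4e-12), the tenascin-C receptor chain Itga9 rose by 1.73 ± 0.15 (9.6e-09) and Itgb3 fell by 1.52 (± 0.07, 1.8e-12). Of 22 other proteoglycans 7 rose and 6 fell, and the leucine-rich Prelp rose by 3.52 ± 0.26 (5.4e-10), with medians of 20.2 TPM at day 4 and 1.93 TPM at day 0. Of 21 elastic fibre genes 6 rose and 9 fell, with Fbln5, a fibulin that tethers elastin, up by 2.02 ± 0.18 (1.0e-08) and the crosslinking enzyme Loxl2 at -2.18 ± 0.13 (1.7e-11). Of 21 other matricellular genes 4 rose and 8 fell, with osteopontin (Spp1) at -2.70 ± 0.15 (1.4e-11). Of 14 vitamin K and mineralisation genes 5 rose and 3 fell, and the osteocalcin gene Bglap2 had medians of 65.6 TPM at day 4 and 1.01 TPM at day 0 (6.03 ± 0.34, 1.2e-11). Of 23 glycosaminoglycan enzymes 5 rose and 12 fell.

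On log2(TPM + 1) the balance of all calls shifted with the scale, to 2710 higher and 5253 lower genes against 4488 and 4119 in edgeR between day 0 and day 4 on plastic, to 2824 and 239 against 961 and 1244 between day 4 and day 7 on plastic, and to 177 and 62 against 240 and 194 between those days on unpatterned gelatin.

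Markers of other cell states moved over the same days. Between day 0 and day 4, 30.2% of all genes rose and 27.7% fell in C2C12 on plastic, and 20.2% and 22.4% in primary cells. Between day 0 and day 4 all 8 proliferation markers were lower in both cell types, with sums of 202 to 243 TPM at day 4 and 1336 to 1587 TPM at day 0 in C2C12 on plastic and of 119.5 to 174 TPM and 569 to 709 TPM in primary cells. In C2C12 on plastic 2 of 5 smooth muscle markers tested were higher and 1 lower, and their list of 8 summed to 2157 to 2268 TPM at day 4 and 1084 to 1204 TPM at day 0. Of 3 tendon markers tested 2 were higher, with a list sum of 277 to 313 TPM and 115 to 144 TPM, and of 8 fibroblast markers 2 were higher and 3 lower, with 585 to 604 TPM and 790 to 892 TPM. Kcnj8, Chodl, Thy1 and Dpp4 of these lists were at 0 at day 4 on plastic. In primary cells 2 of 3 tendon markers were higher (96.8 to 132 TPM at day 4, 43.5 to 71.9 TPM at day 0), 1 of 6 smooth muscle markers was higher and 2 were lower (564 to 1215 TPM, 1271 to 1645 TPM), and none of 8 fibroblast markers was called.

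Between day 4 and day 7 on plastic 4 of 5 smooth muscle and 3 of 8 fibroblast markers were lower (8.38% of all genes). On patterned gelatin 5 of 8 proliferation markers were lower (9.01% of all genes). Mitochondrial transcripts there took 0.894% to 1.91% of counts at day 7 and 2.70% to 4.21% at day 4. The part of these markers in the differences between days was not tested.

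The substrate was tested in C2C12 in a single fit of 21 libraries, and the 2 gelatins share their plastic libraries as the comparison. Patterned over plastic at day 4, 3 of 9 genes were lower and none higher (1.45% of genes lower, 2.09% higher). Unpatterned over plastic at day 4, 1 was higher and none lower (4.02% higher, 3.86% lower). At day 7 patterned gelatin had 2 higher and none lower (13% higher, 10.9% lower) and unpatterned gelatin 1 higher and none lower (2.48% higher, 0.976% lower). On log2(TPM + 1) patterned gelatin had 816 higher and 44 lower genes at day 4 against 311 and 216 in edgeR, where the median of all genes moved by 0.11, and 1049 and 1950 at day 7 against 1925 and 1617. Unpatterned gelatin had 950 and 62 against 597 and 573 at day 4, and 114 and 90 against 369 and 145 at day 7. These shares of all genes also rest on single libraries, since leaving out any 1 of them gave 129 to 213 genes in place of 527 for patterned gelatin at day 4 and 263 to 892 in place of 1170 for unpatterned gelatin.

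Periostin was higher on gelatin on both days. At day 4 it had 177, 208 and 245 CPM on patterned gelatin, 236, 229 and 326 CPM on unpatterned gelatin and 125, 168 and 150 CPM on plastic. At day 7 the values were 298, 178 and 288 CPM on patterned gelatin, 357, 278 and 323 CPM on unpatterned gelatin and 145, 161 and 132 CPM on plastic. Every gelatin library lay above every plastic library of its day in CPM. The rise on unpatterned gelatin was 0.83 ± 0.18 at day 4 (adjusted p = 0.011) and 1.13 ± 0.18 at day 7 (0.0018), and on patterned gelatin 0.82 ± 0.18 at day 7 (0.0058). On patterned gelatin at day 4 it was 0.51 ± 0.18 and missed the threshold (adjusted p = 0.13). Without plastic replicate 1 or unpatterned replicate 3 the day 4 value on unpatterned gelatin was 0.74 or 0.67 (adjusted p = 0.055 and 0.070). Fitted on its own 2 groups, patterned gelatin at day 7 gave 0.82 with an adjusted p of 0.18, in a comparison that then called 21 genes in place of 3542.

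Mgp was lower on patterned gelatin at day 4, at 111, 95.2 and 104 CPM, with 193, 162 and 198 CPM on unpatterned gelatin and 257, 228 and 229 CPM on plastic. The difference from plastic was -1.21 ± 0.24 (adjusted p = 0.0099), and on unpatterned gelatin it was -0.37 ± 0.23 (adjusted p = 0.38). The libraries of the 3 substrates formed 3 groups without overlap in CPM. At day 7 Mgp had 127, 160 and 143 CPM on patterned gelatin, 174, 165 and 158 CPM on unpatterned gelatin and 225, 197 and 78.1 CPM on plastic, and both differences from plastic missed the threshold (adjusted p = 0.56 and 0.99). Replicate 3 of plastic decided this on patterned gelatin, where the difference was -0.20 with it and -0.56 without it (adjusted p = 0.011). Without plastic replicate 1 it was 0.06 and not called.

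Fibromodulin was lower on patterned gelatin at day 4, at 0.353, 0.643 and 0.788 CPM, than on plastic at 1.39, 2.27 and 1.51 CPM (-1.52 ± 0.34, adjusted p = 0.021). Sparc was lower by a small amount, with 1088, 1037 and 1125 CPM on patterned gelatin and 1328, 1483 and 1364 CPM on plastic (-0.36 ± 0.08, adjusted p = 0.021), and on log2(TPM + 1) it was -0.21 and not called (adjusted p = 0.22). These calls at day 4 were also sensitive to single libraries. Without replicate 2 of patterned gelatin none of the 9 genes was called, with adjusted p of 0.052 for Mgp, 0.065 for Fmod and 0.081 for Sparc. Without replicate 1 of patterned gelatin or replicate 2 of plastic only Mgp was called, with 0.12 and 0.11 for Fmod and 0.081 and 0.12 for Sparc. Fn1 had 2721, 4687 and 3936 CPM on patterned gelatin, 3352, 2954 and 3107 CPM on unpatterned gelatin and 5462, 6042 and 6017 CPM on plastic at day 4. All its gelatin libraries lay below the plastic ones in CPM, but the differences of -0.63 ± 0.30 and -0.90 ± 0.30 missed the threshold (adjusted p = 0.27 and 0.071). In TPM patterned gelatin overlapped plastic, with 1183 TPM in patterned replicate 2 and 1145 TPM in plastic replicate 1. Fitted on their own groups, 7 of 9 genes were called on patterned gelatin at day 4 and 6 on unpatterned gelatin, Fn1 among them in both (adjusted p = 0.027 and 8.6e-05). Those fits also called far more genes over the whole table than the 527 and 1170 of the fit of 21 libraries, with the totals given in the last section.

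At day 7 Tnc had 178, 199 and 172 CPM on patterned gelatin and 87.5, 138 and 168 CPM on plastic (0.50 ± 0.18, adjusted p = 0.047). The groups were separated by a narrow gap. The call did not hold in 5 of the 6 fits that left out a library, all but that without plastic replicate 3, nor with only the groups compared (adjusted p = 0.24), and the difference was 0.27 without plastic replicate 1 (adjusted p = 0.22). Decorin had 129, 81.7 and 114 CPM on unpatterned gelatin and 80.96, 69.6 and 32.9 CPM on plastic at day 7 (0.83 ± 0.27, adjusted p = 0.094).

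The pattern itself, patterned over unpatterned gelatin, called none of the 9 genes at day 4 (0.00673% of genes higher, 0% lower) or at day 7 (0.391% higher, 0.148% lower). Without patterned replicate 1 the day 7 comparison had 278 genes higher and 602 lower, against 58 and 22 with all libraries. At day 4 Mgp had the smallest adjusted p of the 9, with a log2 fold change of -0.84 ± 0.24 (adjusted p = 0.21), and was the 1 gene of the 9 with an unadjusted p under 0.05. DESeq2 called it (-0.84, adjusted p = 0.040), as did the fit of the 2 gelatin groups alone (adjusted p = 0.0093). At day 7 DESeq2 called none either and 0 genes of the 9 had an unadjusted p under 0.05. The differences ran from -0.45 ± 0.27 for Dcn to 0.35 ± 0.30 for Fn1. A p that misses the threshold does not show that the 2 gels act alike.

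Whether a substrate difference changed between the days was tested as an interaction. For patterned gelatin over plastic, Fbn1 had 490, 546 and 478 CPM on patterned gelatin and 374, 516 and 346 CPM on plastic at day 7, and 466, 523 and 535 CPM on patterned gelatin and 571, 695 and 659 CPM on plastic at day 4. The difference moved by 0.65 ± 0.17 on the log2 scale (adjusted p = 0.031), the 1 call among 9 genes where 11.8% of all genes were called in either direction. It was lost without day 4 plastic replicate 2 or 3, day 4 patterned replicate 1 or 3, or day 7 plastic replicate 1 or 3 (adjusted p = 0.055 to 0.090). Mgp moved by 1.01 ± 0.33 (adjusted p = 0.055) and Sparc by 0.36 ± 0.12 (0.051). For unpatterned gelatin over plastic none of the 9 was called by edgeR or DESeq2, with 3 at an unadjusted p under 0.05, and for the pattern none was called by either tool, with 0 at an unadjusted p under 0.05 (0% of genes called in each).

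**Figure D3:**
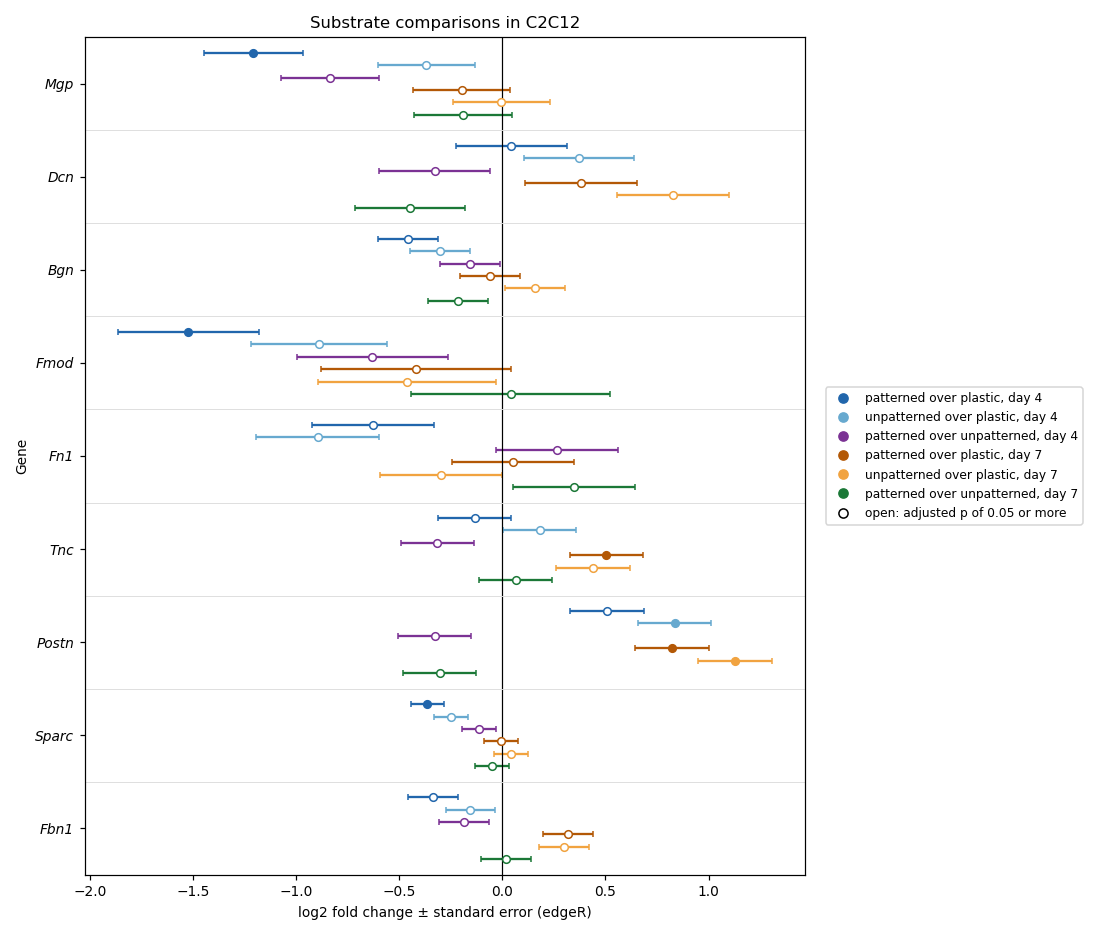
Log2 fold change with its standard error (edgeR) for 9 genes in C2C12, for each gelatin over plastic and for patterned over unpatterned gelatin at days 4 and 7, filled where the adjusted p was under 0.05. Postn lay between 0.51 and 1.13 in all 4 comparisons with plastic, and Mgp lay at -1.21 on patterned gelatin at day 4 and at -0.20 at day 7.

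Genes of the related lists were called on gelatin as well. At day 4 the leucine-rich proteoglycan Prelp was lower on both gelatins, by -1.20 ± 0.22 on patterned (adjusted p = 0.0065) and -1.39 ± 0.22 on unpatterned gelatin (0.0026). The collagen crosslinking enzyme Loxl2 was higher on both, by 0.67 ± 0.12 (0.0065) and 0.86 ± 0.12 (0.00096). At day 7 Loxl2 was higher again, by 0.82 ± 0.13 on patterned (0.0011) and 1.04 ± 0.13 on unpatterned gelatin (0.00016), and syndecan-4 (Sdc4), a co-receptor for fibronectin, by 0.59 ± 0.10 (0.0020) and 0.43 ± 0.10 (0.029). These pairs of values share the plastic libraries. Of 21 elastic fibre genes 10 were higher and 1 lower on patterned gelatin at day 7 (13% of all genes higher, 10.9% lower). Their median was 0.30 where that of all genes was 0.01. At day 4 1 was higher and 2 lower (2.09% and 1.45% of all genes).

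On patterned gelatin at day 7, where 13% of all genes were higher and 10.9% lower, 2 other proteoglycans of 22 were higher and 5 lower. Of 23 glycosaminoglycan enzymes 5 were higher, as were 5 of 14 vitamin K and mineralisation genes, with none lower. Of 21 other matricellular genes 1 was higher (Fstl1, 0.46 ± 0.10, adjusted p = 0.0062), and 3 of 20 receptors were higher and 5 lower. On the same libraries 5 of 8 markers of proliferating cells were lower and none higher, 3 of 8 tested fibroblast markers were higher and 2 lower, and mitochondrial transcripts took 0.894% to 1.91% of counts against 2.70% to 3.99% on plastic. The part of these in the matrix gene differences was not tested.

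Several of these genes have alternative exons, and the share of full-length transcripts that carry them was followed because it differed between cell types and days. The share is the TPM of the annotated coding transcripts of at least 20 exons that hold the exon, as a percent of that of all such transcripts of the gene, and it is an estimate, since Kallisto divides reads among transcripts that share most of their exons. It is given as a description, with no test. In fibronectin the exon of 270 bases (chr1:71603660-71603929, minus strand, GRCm38, internal coding exon, 4 of 7 full-length transcripts) codes for the extra domain A and that of 273 bases (chr1:71613763-71614035, minus strand, 1 of 7 transcripts) for the extra domain B, each an additional type III repeat found in fibronectin made by cells in tissues and largely absent from plasma fibronectin. In tenascin-C an exon of 273 bases (chr4:63984460-63984732, minus strand, 1 of 3 transcripts) has the length of a type III repeat. All have a length divisible by 3, so that their inclusion keeps the reading frame. The sequences below run 5′ to 3′ on the transcript, with the exon in capitals and the bases of the neighbouring exons in lower case, to show what is added to the message.
Fn1 exon of 270 bases: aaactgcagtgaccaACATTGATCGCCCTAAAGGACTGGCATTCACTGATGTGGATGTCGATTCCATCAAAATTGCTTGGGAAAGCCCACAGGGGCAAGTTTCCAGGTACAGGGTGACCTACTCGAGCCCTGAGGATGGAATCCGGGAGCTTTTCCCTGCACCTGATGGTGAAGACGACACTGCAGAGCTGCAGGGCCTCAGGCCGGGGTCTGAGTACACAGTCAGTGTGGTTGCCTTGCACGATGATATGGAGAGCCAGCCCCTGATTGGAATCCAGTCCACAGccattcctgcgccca
Fn1 exon of 273 bases: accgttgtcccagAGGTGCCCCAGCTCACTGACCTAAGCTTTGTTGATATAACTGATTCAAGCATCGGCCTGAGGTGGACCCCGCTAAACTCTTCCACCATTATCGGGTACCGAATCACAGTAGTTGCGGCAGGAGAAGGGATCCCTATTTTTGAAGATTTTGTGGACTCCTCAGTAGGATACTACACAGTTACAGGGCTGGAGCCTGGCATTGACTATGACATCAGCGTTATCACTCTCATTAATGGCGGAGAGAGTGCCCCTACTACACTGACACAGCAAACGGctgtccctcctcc
Tnc exon of 273 bases: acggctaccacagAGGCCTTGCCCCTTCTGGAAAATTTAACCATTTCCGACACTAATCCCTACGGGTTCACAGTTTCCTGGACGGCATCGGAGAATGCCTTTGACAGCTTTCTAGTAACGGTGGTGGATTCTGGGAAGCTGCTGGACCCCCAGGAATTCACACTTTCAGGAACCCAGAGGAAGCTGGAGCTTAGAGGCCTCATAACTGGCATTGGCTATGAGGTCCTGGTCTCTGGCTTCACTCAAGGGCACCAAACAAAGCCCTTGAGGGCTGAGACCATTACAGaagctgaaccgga

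The fibronectin exon of 270 bases was held by 84.2%, 85.1% and 90.9% of full-length TPM in primary cells at day 0, by 78.0%, 74.3% and 90.2% at day 4 and by 66.4%, 60.8% and 89.0% at day 7. In C2C12 it was held by 69.1%, 68.6% and 66.9% at day 0, by 57.4%, 56.7% and 56.9% at day 4 on patterned gelatin and by 49.8%, 50.6% and 54.3% at day 7 on patterned gelatin. Every primary library exceeded every C2C12 library of the same day and substrate.

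The fibronectin exon of 273 bases differed more. It was held by 73.1%, 76.3% and 79.1% in primary cells at day 0 and by 37.3%, 37.9% and 35.0% in C2C12. At day 4 on patterned gelatin the shares were 51.3%, 49.5% and 76.6% in primary cells and 23.9%, 23.1% and 21.6% in C2C12, and at day 7 they were 33.5%, 32.9% and 82.98% in primary cells and 19.3%, 19.1% and 19.1% in C2C12. Primary replicates 1 and 2 came down from day to day while replicate 3, which stands apart, did not. In C2C12 the share was lower in every library of days 4 and 7 than in every library of day 0, and the highest of those later values, 29.2%, was replicate 3 of day 7 on plastic, the library with the low Mgp and Dcn. On day 4 the 3 plastic libraries held the 270-base exon at 50.6% to 53.4% and the 6 gelatin libraries at 56.7% to 59.4%, without overlap. At day 7 the substrates overlapped, at 46.3% to 58.1% on plastic and 48.6% to 56.2% on gelatin. At least 8647 estimated counts lay behind each fibronectin share.

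The tenascin-C exon was held by 55.8%, 56.5% and 47.9% in primary cells and by 38.9%, 40.9% and 37.8% in C2C12 at day 0. At day 4 on patterned gelatin it was held by 24.3%, 32.03% and 35.7% in primary cells and by 26.3%, 27.2% and 23.5% in C2C12, and at day 7 by 27.0%, 29.5% and 19.8% and by 22.4%, 15.2% and 11.1%. The cell types were separate at day 0 and overlapped on the later days. In both, every library of day 4 and day 7 was below every library of day 0, so tenascin-C was lower at these days in C2C12 in level and in the share of this exon alike. The primary shares of days 4 and 7 rest on as few as 240 and 79 estimated counts, in replicate 3.

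**Figure D4:**
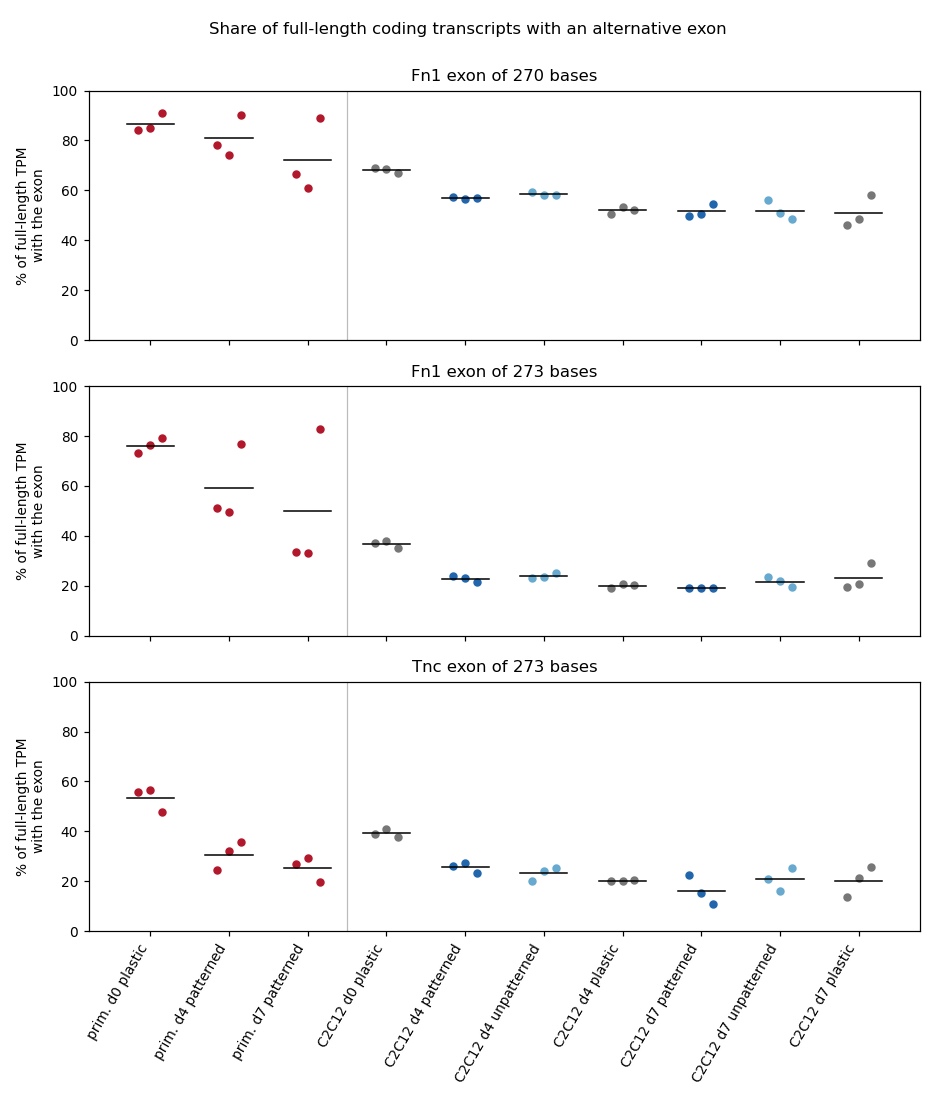
Percent of the TPM of full-length coding transcripts that holds each of 3 alternative exons, with a point per library, a line at the mean of 3, primary groups left of the grey line and C2C12 groups right of it. The 273-base exon of Fn1 lay at 73.1% to 79.1% in primary cells and 35.0% to 37.9% in C2C12 at day 0, and primary replicate 3 stayed at 82.98% at day 7.

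Periostin has 2 alternative exons near its 3′ end, in the stretch coding for its variable C-terminal region, of 81 bases (chr3:54380412-54380492, plus strand, 2 of 4 full-length transcripts) and of 84 bases (chr3:54385671-54385754, plus strand, 2 of 4). They are shown for C2C12, since in primary cells no more than 51 estimated counts lay behind a share.
Postn exon of 81 bases: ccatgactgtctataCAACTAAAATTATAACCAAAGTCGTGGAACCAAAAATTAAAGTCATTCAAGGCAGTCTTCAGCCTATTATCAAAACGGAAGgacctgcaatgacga
Postn exon of 84 bases: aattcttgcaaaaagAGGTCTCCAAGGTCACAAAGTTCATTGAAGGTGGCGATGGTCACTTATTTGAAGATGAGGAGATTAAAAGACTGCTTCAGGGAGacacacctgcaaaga

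In C2C12 the periostin exon of 81 bases was held by 12.1%, 20.96% and 14.1% at day 0 and by 8.43%, 10.1% and 7.54% at day 4 on patterned gelatin, and the exon of 84 bases by 36.5%, 31.1% and 40.4% and by 18.7%, 23.8% and 20.9%. On patterned gelatin at day 7 the shares were 6.95%, 4.94% and 6.30% for the exon of 81 bases and 26.4%, 25.3% and 19.3% for that of 84 bases. Both shares were lower at day 4 on each substrate than in any library of day 0, while the level of periostin was higher. At day 7 this held on both gelatins, and on plastic replicate 3, with 22.2% and 41.3%, lay above all of day 0. Between 863 and 9902 estimated counts lay behind these shares.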

How the data were processed

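RNA-seq of 30 libraries was analysed from deposited transcript tables, which the authors made with Kallisto, named with the build mm10 in the submitters' processing notes. Its version is not given in the sources used here, nor is the annotation it used. The tables hold estimated counts, deposited unscaled, and TPM computed by the authors from those counts and effective lengths. Reads shared by transcripts are divided by a model, so values of single transcripts are less certain than gene sums. Of 88198 transcripts, 86119 were matched to GENCODE M21 (GRCm38) by identifier, and the 2079 others held 0.698% to 0.860% of counts per library. Counts and TPM were summed to 30284 genes, of which 22977 had a count, and gene counts were rounded to whole numbers. No 2 libraries were identical.

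Counts were filtered with filterByExpr, normalised with TMM factors and tested with the quasi-likelihood F test of edgeR 4.0.16 in R 4.3.3, with Benjamini-Hochberg adjustment over all genes tested and a threshold of 0.05. Each standard error came from the fold change (log2) and F, as its absolute value over the root of F. C2C12 comparisons were fitted on 21 libraries, primary comparisons on 9 and comparisons of cell types on 30. The sleuth test named in the study's methods was not run. Alternatives were other size factors (RLE), no filter, the replicate number as a block, DESeq2 1.42.0, limma 3.58.1 on log2(TPM + 1), only the groups compared, and leaving out each library. The fits without primary replicate 3, the interaction of cell type with day 4 against day 0 and the exon shares were added after the data were seen. Tables were handled with pandas 2.3.3 and numpy 2.4.6 in Python 3.11.15 and plotted with matplotlib 3.10.9. The scripts were tested on simulated data.

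Same-numbered primary libraries of different days deviated together in all 9 pairs (r = 0.236 to 0.839, median 0.499, with 8 of 9 libraries most like a library that bears the same number), so the numbers were taken to pair the primary libraries. The values reported come from fits without the block, and blocked values are given where the block changed a call. The members and lists were chosen with earlier results of these data known. All 10 members were looked up in every comparison. Those tested are plotted for each comparison of 2 groups, apart from Fmod between cell types, and the text names those called and some others, with at most 3 genes per related list and comparison, those past the threshold with the smallest adjusted p.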

Additional observations from a re-analysis of the deposited data

Results flagged for a closer look

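Of the interaction terms, which ask whether a difference itself changed between days or cell types, 3 passed the threshold of 0.05 (edgeR, adjusted over all genes). The difference of Fbn1 between patterned gelatin and plastic was higher by 0.65 (log2) at day 7 than at day 4 in C2C12. The difference between primary cells and C2C12 was lower at day 4 on patterned gelatin than at day 0 on plastic by -3.01 for Bgn and by -1.52 for Postn. Day, medium, substrate, a possible coating and harvest cannot be told apart in these.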

How the results depend on the processing

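Of 75 gene values called in at least 1 fit, none that was called changed sign under any alternative, and 3 that were not called did. Mgp on patterned gelatin against plastic at day 7 (-0.20) ran from -0.56 without plastic replicate 3 to 0.063 without plastic replicate 1. With limma on log2(TPM + 1), Bgn on unpatterned gelatin against plastic at day 4 (-0.30) was 0.037 and Fn1 at day 4 against day 0 on plastic (0.26) was -0.0017. Of the genes tested by edgeR, the number called changed by over 1.5 times as follows. Patterned against unpatterned gelatin at day 4 had 0 called and 1 with DESeq2 and with only the groups compared. Patterned gelatin against plastic had 3 at day 4 and 7 with only the groups compared, and 2 at day 7 and 0 with only the groups compared. Unpatterned gelatin against plastic had 1 at day 4, 3 with DESeq2 and 6 with only the groups compared, and 1 at day 7 and 2 with DESeq2. Day 7 against day 4 in C2C12 had 5 on plastic and 2 with limma on log2(TPM + 1), and 1 on unpatterned gelatin, 2 with DESeq2 and 0 with limma. The change of the patterned gelatin difference between days had 1, 2 without a filter, 3 with DESeq2, and 0 with limma and with only the groups compared. The cell type difference at day 4 less day 0 had 2, 5 with limma, 1 with only the groups compared and 4 from primary replicates 1 and 2. Primary day 4 against day 0 had 2 and 4 from replicates 1 and 2.

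With the replicate block, primary day 4 against day 0 had 5 called in place of 2, the change of the patterned gelatin difference had 2 in place of 1, and patterned gelatin against plastic at day 7 and the cell type difference at day 4 less day 0 had 3 each in place of 2. In C2C12 same-numbered libraries did not deviate together (63 pairs, r = -0.351 to 0.421, 7 of 21 closest to their own number), so there the block only shares a number.

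Leaving out a library gave 0 to 3 called for patterned gelatin against plastic at day 4 and 1 to 3 at day 7, 0 to 1 and 1 to 2 for unpatterned gelatin, 4 to 6 for day 7 against day 4 on plastic, 0 to 1 on unpatterned and on patterned gelatin, 1 to 2 for primary day 4 against day 0, 4 to 5, 7 to 8 and 7 to 9 for primary against C2C12 at days 0, 4 and 7, 0 to 3 for the change of the patterned gelatin difference and 1 to 3 for the cell type difference.

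Over all genes, patterned against unpatterned gelatin had 1 called at day 4, with 4, 0, 12, 140, 0 and 71 under RLE, no filter, block, DESeq2, limma and only the groups compared, and 80 at day 7, with 143, 489 and 0 under block, DESeq2 and only the groups compared. Patterned gelatin against plastic had 527 at day 4, with 343, 1004, 860 and 2424 under no filter, DESeq2, limma and only the groups compared, and 3542 at day 7, with 21 under the last. Unpatterned gelatin had 1170, with 1808 under DESeq2 and 3225 under only the groups compared, and 514 at day 7, with 953, 204 and 70 under DESeq2, limma and only the groups compared. Day 7 against day 4 had 434 on unpatterned gelatin, with 721 under DESeq2 and 239 under limma, 3008 on patterned gelatin, with 217 under only the groups compared, and 0 in primary cells, with 58 under DESeq2 and 124 from replicates 1 and 2. Primary against C2C12 at day 7 had 7951, with 4672 under only the groups compared. The change of the patterned gelatin difference had 1746, with 2680 and 193 under DESeq2 and only the groups compared. Day 7 against day 4 between cell types had 119, with 43, 182, 446, 6 and 611 under no filter, block, DESeq2, only the groups compared and primary replicates 1 and 2. The pattern and unpatterned gelatin changes between days had 0, with 5 and 18 under DESeq2 and, for the second, 1 under only the groups compared. Leaving out a library gave 15 to 880 genes for the pattern at day 7, 129 to 213 and 2027 to 4429 for patterned gelatin against plastic at days 4 and 7, 263 to 892 and 198 to 503 for unpatterned gelatin, 997 to 2679, 169 to 431 and 1222 to 4014 for day 7 against day 4 on plastic, unpatterned and patterned gelatin, 2 to 3502 for the change of the patterned gelatin difference and 11 to 426 for day 7 against day 4 between cell types. It moved the other counts of 100 or more by under 1.5 times. The causes were not tested.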
